A study of Mus musculus with 2 samples.

Results

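The genes described here are 36 genes of the lysosome and its proton pump, chosen by symbol from the 27998 genes of the files: 7 lysosomal membrane proteins, 11 hydrolases, the lumenal cofactors Grn and Psap, the transcription factors Tfeb and Mitf, and 14 subunits and accessory proteins of the vacuolar ATPase (V-ATPase). Cathepsins were not among them. All 36 were found in the files. Single-cell RNA sequencing had been carried out on CD11c-selected cells taken from tumours of C57BL/6N mice with the PyMT transgene, which carry the polyoma middle T antigen and develop mammary tumours. CD11c is an integrin carried by many dendritic cells and macrophages. There were 2 libraries, both labelled WT and myeloid cells, called replicate 1 and replicate 2 here, and no other group. The labels do not say whether they came from separate animals. The p-values therefore measure only how far differences between cell classes vary between these libraries, which may be technical.

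Lysosomes are acidic organelles in which macrophages and dendritic cells break down engulfed material. The V-ATPase pumps protons through its membrane-embedded V0 sector, driven by ATP hydrolysis in the peripheral V1 sector, and the hydrolases work in the acid it makes. The MiT/TFE transcription factors, among them TFEB and MITF, bind an E-box (CACGTG) in promoters of many lysosomal and V-ATPase genes. Macrophages are known for high lysosomal degradation, while dendritic cells keep part of the protein they take up for presentation to T cells.

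A feature of these genes that the choice did not use is this E-box. RefSeq promoter windows of GRCm38.p6, reaching from 250 bases before to 50 bases after a start given by RefSeq, were matched to 30 of the 36 genes. This start can lie inside the gene as placed by GENCODE. For Atp6v0e (plus strand) the window was chr17:26676146-26676445, while the gene starts at 26663231. The windows of Lgmn and Atp6v1a also lay wholly inside the gene, as did the starts used for Gla, Naglu and Mcoln1. CACGTG, which is its own reverse complement, was found in 10 of these 30 genes (33.3%) and in 2187 of the 27025 genes with a window (8.09%). The longer palindrome TCACGTGA, which contains CACGTG, was found in 5 of the 30 genes (16.7%) and in 1.12% of all genes. By role, CACGTG was found in 4 of 9 matched V-ATPase genes (Atp6v0b, Atp6v0d1, Atp6v0e and Atp6v1a), 4 of 10 matched hydrolases (Gla, Glb1, Naglu and Lgmn) and 2 of 7 membrane genes (Lamp1 and Mcoln1). Grn, Psap, Tfeb and Mitf had none in this window. A match describes these letters only and shows no binding. Asah1, Atp6v0d2, Atp6v1b2, Atp6v1c1, Atp6v1g1 and Atp6v1h had no entry.

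The stretches below were chosen because they cover each of the 3 large roles and include the member with most E-boxes, Lamp1. They lie upstream of the gene's start, on the gene's strand, 5′ to 3′, and capitals mark CACGTG. The positions are chr4:117887334-117887385 (minus strand) for Atp6v0b, chr8:3500428-3500456 (plus) for Mcoln1, chr8:13159080-13159160 (plus) for Lamp1, chr9:114401010-114401055 (plus) for Glb1 and chrX:134601174-134601252 (minus) for Gla.
Atp6v0b: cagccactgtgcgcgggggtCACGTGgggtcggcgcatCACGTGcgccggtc
Mcoln1: ttagaaagggtcgcgcttgtCACGTGttc
Lamp1: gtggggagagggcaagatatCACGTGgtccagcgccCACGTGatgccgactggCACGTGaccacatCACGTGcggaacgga
Glb1: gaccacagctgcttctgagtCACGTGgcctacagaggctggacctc
Gla: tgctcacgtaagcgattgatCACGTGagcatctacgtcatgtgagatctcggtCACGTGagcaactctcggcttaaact
The E-boxes of Lamp1 lay 61, 45, 28 and 15 bases before its RefSeq start, and those of Gla lay 227 and 194 bases before its RefSeq start. Mcoln1 had E-boxes 71 and 45 bases before its RefSeq start, and its stretch shows only the one at 71. The one at 45, left out, is part of a TCACGTGA. The expression of these genes is given with their roles.

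Replicate 1 held 17369071 UMIs (unique molecular identifiers, each counted as 1 captured molecule) and replicate 2 held 13317214. After filtering, 1900 and 1216 cells had medians of 5670 and 7149 UMIs, and 2 cell barcodes occurred in both libraries. The 36 genes took 132682 and 104954 UMIs in these cells. Cells were assigned to classes by scores over marker genes that do not include the 36, so each class is a range of a score and not a proven type. Of 3116 cells, 418 (13.4%) met no class, 95 lay near the cut between lineages, and 158 lay near the cut between macrophage subsets. A further 215 macrophage-like cells fitted no subset. Clusters of the same cells gave the same class to 73.1% of the cells in the 8 myeloid classes.

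The 8 myeloid classes held 2136 cells. The macrophage-like subsets were C1q Vcam1 (243 and 265 cells in replicates 1 and 2), Spp1 Gpnmb (76 and 26), Folr2 (224 and 38) and Ccr2 Fcgr4 macrophages (140 and 74), each named by 2 of its markers. The other classes were monocyte-like cells (201 and 101), cDC2-like cells (203 and 219), cDC1-like cells (147 and 79) and mature DC-like cells with Ccr7 and Fscn1 among their markers (63 and 37). The macrophage lineage markers had medians of 362 to 565 UMIs per 10000 in the 4 subsets, 24.0 and 26.8 in monocyte-like cells and 3.51 to 7.84 in the dendritic classes. Markers of T and NK cells, B cells, neutrophils, fibroblasts and endothelium had a median of 0 in each of the 8 classes. Epithelial markers had medians of at most 3.45. In cDC2-like cells the Ccr2 Fcgr4 macrophage markers had medians of 22.9 and 50.005, beside 27.6 and 32.3 for the cDC2 markers themselves, and their part in the comparisons with cDC2 was not tested.

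Summed over roles, the hydrolases differed far more between classes than the V-ATPase. Values are CPM, the UMIs of a gene relative to the UMIs of its class in that library, scaled by the trimmed mean of M values (TMM). The UMIs of a class were those of the 8955 genes past the filter on low counts. For free RNA, CPM are relative to all its UMIs and unscaled. The summed hydrolase level was 4556 and 5448 CPM in C1q Vcam1 macrophages, 4235 and 4519 in Spp1 Gpnmb, 3660 and 4119 in Ccr2 Fcgr4 and 3533 and 3310 in Folr2 macrophages. It was 2096 and 2073 in cDC1, 1574 and 1661 in monocyte-like cells, 1089 and 1157 in cDC2 and 1105 and 1058 in mature DC. The means ran from 5002 ± 631 (SD, n = 2 libraries) in C1q Vcam1 macrophages to 1082 ± 33.7 in mature DC, a 4.62-fold range. In the order of the means, each of the 4 macrophage subsets lay above every other class in both libraries. The libraries of the neighbours cDC2 and mature DC overlapped, and so did the SDs of each neighbouring pair among the macrophage subsets. With Lgmn left out, chosen after the data were seen, cDC1 lay above the Folr2 and Ccr2 Fcgr4 macrophages in both libraries. Of that cDC1 level, Ppt1 held 45.6% and 46.7%.

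The summed V-ATPase level was 3297 and 3043 CPM in Spp1 Gpnmb, 3197 and 2511 in Folr2, 2601 and 2769 in C1q Vcam1 and 2600 and 2502 in Ccr2 Fcgr4 macrophages. It was 2309 and 2285 in monocyte-like cells, 2074 and 2082 in mature DC, 1976 and 1982 in cDC1 and 1895 and 2055 in cDC2. Both Spp1 Gpnmb libraries lay above those of the C1q Vcam1 and Ccr2 Fcgr4 subsets, the Folr2 libraries overlapped each other subset, and those of cDC1 lay within the range of cDC2. The membrane proteins summed to 4288 and 5434 CPM in Spp1 Gpnmb, 3956 and 4706 in C1q Vcam1, 3406 and 3109 in Folr2 and 2976 and 3303 in Ccr2 Fcgr4 macrophages. They summed to 2241 and 2318 in mature DC, 1886 and 1903 in monocyte-like cells, 1270 and 1225 in cDC1 and 1238 and 1437 in cDC2.

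**Figure D1:**
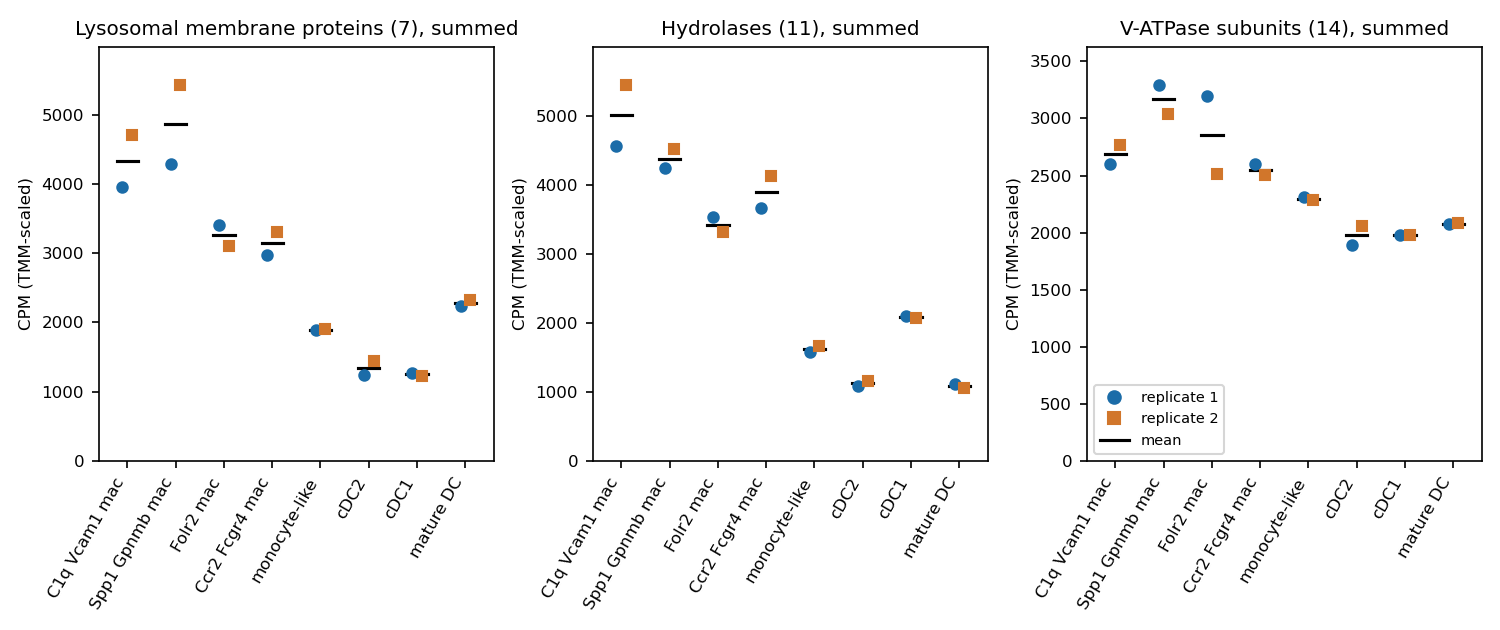
Summed CPM (TMM-scaled, linear axes from 0) of the lysosomal membrane proteins, the hydrolases and the V-ATPase subunits in 8 myeloid classes, with 1 point per library and a line at the mean. Hydrolases ranged from 1082 CPM in mature DC to 5002 in C1q Vcam1 macrophages, while the V-ATPase stayed between 1975 in cDC2 and 3170 in Spp1 Gpnmb macrophages.

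The ratio of the summed V-ATPase to the summed hydrolase level was 0.540 in C1q Vcam1 macrophages (mean of 2 libraries), 0.659 in Ccr2 Fcgr4, 0.726 in Spp1 Gpnmb and 0.832 in Folr2 macrophages. It was 0.949 in cDC1, 1.42 in monocyte-like cells, 1.76 in cDC2 and 1.92 in mature DC. Lgmn, which encodes the asparaginyl endopeptidase legumain, held 53.4% and 57.4% of the hydrolase UMIs in C1q Vcam1 macrophages, 18.6% and 23.4% in cDC2 and 14.7% and 9.06% in cDC1. In T and NK cells it held 26.2% and 49.0%. Free RNA, measured in barcodes of at most 50 UMIs, held Lgmn at 992 and 1381 CPM. The part of free RNA in these shares was not tested. Without Lgmn, a sum chosen after the data were seen, the ratio was 1.21 in C1q Vcam1 macrophages, 1.49 in Spp1 Gpnmb, 1.51 in Ccr2 Fcgr4 and 1.88 in Folr2 macrophages. It was then 1.08 in cDC1, 2.23 in cDC2, 2.27 in monocyte-like cells and 3.32 in mature DC. Ppt1 held 45.6% and 46.7% of the cDC1 hydrolase level that remained. With Ppt1 left out as well, also chosen after the data were seen, the ratio was 2.00 in cDC1, 1.35 in C1q Vcam1, 1.62 in Spp1 Gpnmb, 1.72 in Ccr2 Fcgr4 and 2.03 in Folr2 macrophages, 2.41 in monocyte-like cells, 2.48 in cDC2 and 3.75 in mature DC. The place of cDC1 in this order therefore rests on single genes.

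Gene by gene, the highest class mean was 2.70 to 38.5 times the lowest among the 11 hydrolases, with a median of 5.33. The 38.5 is that of Naglu, whose lowest class, mature DC, held 1 UMI in replicate 1 and 0 in replicate 2. The next largest was 13.5, for Ppt1. For the 13 V-ATPase genes with a level above 0 in every class the range was 1.27 to 5.11 with a median of 2.40. The remaining one, Atp6v0d2, had a mean of 63.0 CPM in Spp1 Gpnmb macrophages, 8.95 in monocyte-like cells as the next class and 0 in mature DC. Over the 7352 tested genes with a level above 0 in every class the median was 2.97. The highest mean lay in a macrophage subset for 10 of 11 hydrolases (Ppt1 peaked in cDC1), 12 of 14 V-ATPase genes and 6 of 7 membrane genes. The same held for both transcription factors and Grn, while the mean of Psap was highest in cDC1. Psap was highest in Spp1 Gpnmb macrophages in replicate 1 (5131 CPM against 4687 in cDC1) and in cDC1 in replicate 2 (5524 against 4533). As 4 of the 8 classes are macrophage subsets and no share over all genes was computed, these counts are a description. The highest class differed between the libraries for some genes, such as Hexa, Tfeb and Atp6ap2. Among the V0 genes, Atp6v0e was nearly level, from 529 CPM in Ccr2 Fcgr4 macrophages to 674 in mature DC. Laptm5, a lysosomal transmembrane protein of blood cells, had the narrowest range of the membrane genes, 1.93-fold. The proteolipid ring gene Atp6v0c and the calcium channel gene Mcoln1 had only 80 and 89 UMIs over the 8 classes and did not pass the filter on low counts, so 34 of the 36 genes were tested. Cd63 and Atp6v0c have named pseudogenes, and their counts are uncertain to that extent.

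**Figure D2:**
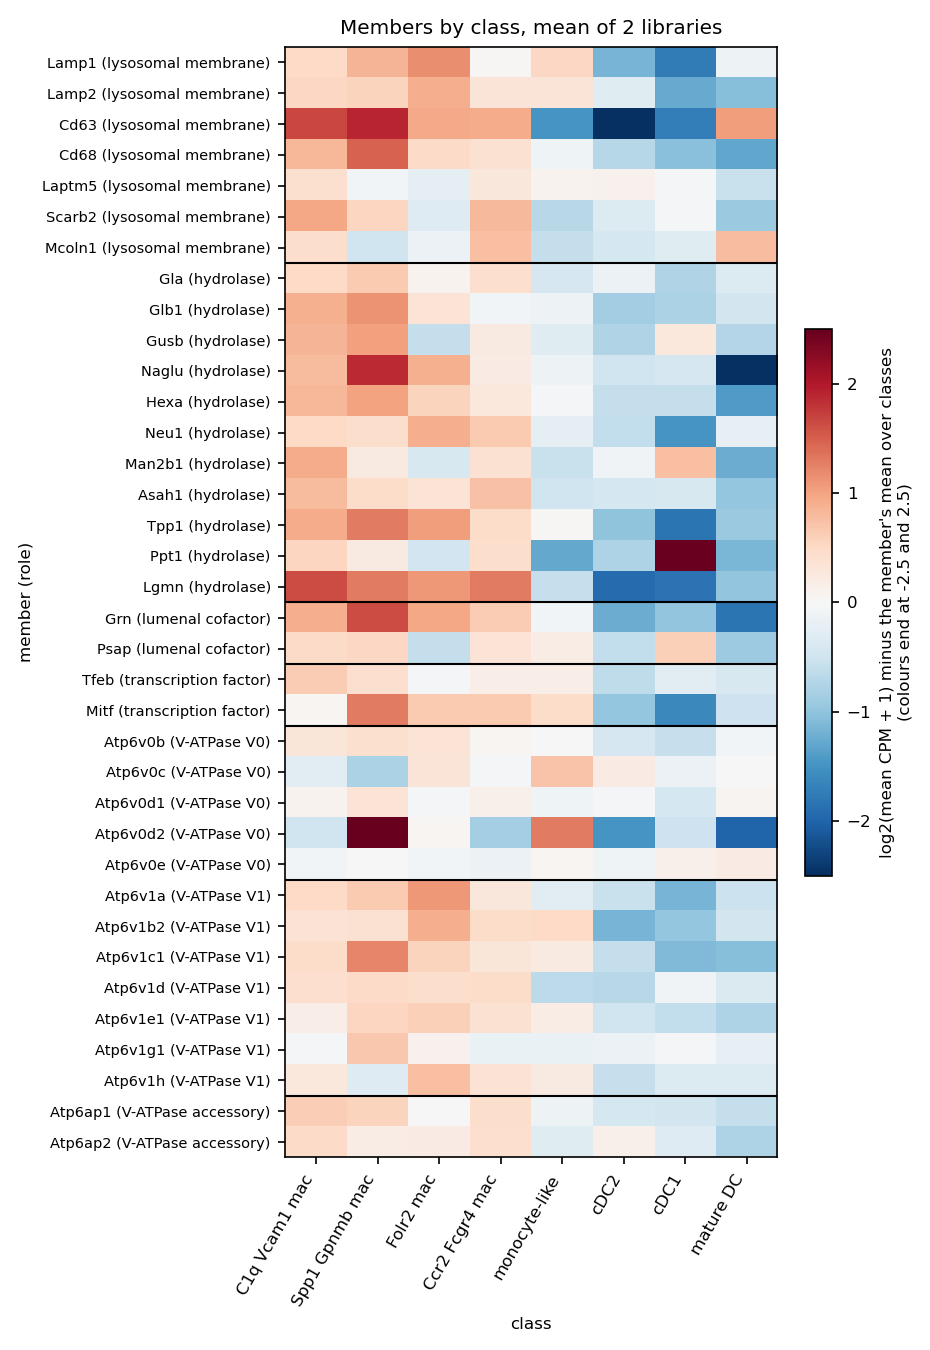
Level of each of the 36 genes in each class, as log2(mean CPM + 1) minus the gene's mean over the 8 classes (colours end at -2.5 and 2.5; mean of 2 libraries). Most hydrolases are high in the 4 macrophage columns and low in the dendritic ones, Ppt1 stands out in cDC1, and Atp6v0e hardly varies.

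The first comparison set the mean of the 4 macrophage subsets against cDC2. Of the 34 genes tested, 27 were higher in macrophages and 0 lower at an adjusted p under 0.05 (edgeR, which is what called means below), where 12.8% of all 8813 tested genes were called higher and 16.5% lower. At an unadjusted p under 0.05, 30 were higher and 0 lower, and DESeq2 called 28 higher and 0 lower. Their median log2 fold was 1.09, beside -0.03 over all genes. By role, 10 of 11 hydrolases, 5 of 6 membrane genes, Grn, Psap and Mitf were higher. So were 6 of 7 V1 genes, 2 of 4 V0 genes and 1 of 2 accessory genes. These calls are for the mean of the 4 subsets. In Folr2 macrophages, Psap had 2349 and 2100 CPM against 2108 and 2261 in cDC2, and Gusb had 146 and 72.7 against 96.1 and 100.4. Scarb2 had 86.9 and 51.3 against 69.4 and 66.3, and Gla had 64.5 and 42.8 against 45.4 and 45.5. For these genes the Folr2 and cDC2 libraries overlapped.

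Among the membrane genes, Cd63, a tetraspanin of late endosomes and exosomes (chr10:128900989-128912822), had 1585 and 1883 CPM in the macrophage subsets and 75.6 and 55.6 in cDC2. Its log2 fold was 4.66 (SE 0.37, adjusted p = 7.99e-12), and in each library the macrophage value lay far above that of cDC2. Lamp1, a main glycoprotein of the lysosomal membrane, had 314 and 329 CPM against 81.0 and 93.7, a log2 fold of 1.81 (SE 0.18, adjusted p = 1.25e-09). Laptm5 was the exception of its role, with a log2 fold of -0.03.

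Among the hydrolases, Lgmn (chr12:102394084-102439813) had 2158 and 2382 CPM in macrophages against 203 and 270 in cDC2, a log2 fold of 3.25 (SE 0.24, adjusted p = 9.07e-13). Tpp1, a tripeptidyl peptidase, had 122 and 126 CPM against 32.0 and 30.1, a log2 fold of 1.95 (SE 0.21, adjusted p = 7.38e-09). Both genes were separated without overlap of the libraries. Only Man2b1, the lysosomal alpha-mannosidase, was not called, at a log2 fold of 0.38. The gene of progranulin, Grn, a precursor of granulins that reaches the lysosome, had 944 and 996 CPM against 181 and 206, a log2 fold of 2.28 (SE 0.16, adjusted p = 5.44e-13).

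Mitf had 19.7 and 17.4 CPM in macrophages and 5.34 and 4.69 in cDC2, a log2 fold of 1.86 (SE 0.44, adjusted p = 0.00116). Tfeb had a log2 fold of 0.92 that was not called (adjusted p = 0.0848), on levels of 8.13 to 20.9 CPM over the 8 classes. Of the V1 genes, Atp6v1b2, a B subunit of the ATP-hydrolysing head, had 91.2 and 88.6 CPM against 24.0 and 29.5, a log2 fold of 1.73 (SE 0.21, adjusted p = 8.32e-08). Of the V0 genes, Atp6v0b and Atp6v0d2 were called. Atp6v0d2 had 68 UMIs in the macrophage subsets and 1 in cDC2, a pooled ratio of 29.4 with a counting interval of 5.10 to 1177. It was carried by the Spp1 Gpnmb subset, with 53 of the 68 UMIs, and its call was lost under 4 of the 10 alternatives (highest adjusted p 0.146). Atp6ap1, an accessory subunit, had 117 and 142 CPM against 62.3 and 79.7, a log2 fold of 0.89. The V0 genes Atp6v0e (0.03) and Atp6v0d1 (0.17), the V1 gene Atp6v1g1 (0.31) and the accessory gene Atp6ap2 (0.19) were not called. Single libraries moved the fold of Naglu (0.89 and 1.65 in replicates 1 and 2, 1.49 in the fit) and of the stalk gene Atp6v1c1 (1.82 and 0.56, 1.25 in the fit) by over 1.5 times on the linear scale.

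Of 64 tested genes on 4 further lysosomal lists, 32 were higher in macrophages than in cDC2 and 3 lower: 14 and 2 of 24 other hydrolases and lumenal proteins, 9 and 1 of 15 other membrane proteins, 1 and 0 of 6 other V-ATPase genes, and 8 and 0 of 19 genes of sorting and MiT/TFE regulation. The largest folds were those of Pla2g15, a lysosomal phospholipase (83.9 and 84.9 CPM against 10.7 and 5.36, log2 fold 3.42), and of Slc11a1, a metal transporter of phagosomes (160 and 144 CPM against 17.8 and 10.7, log2 fold 3.41).

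Within the macrophages, each subset was set against the C1q Vcam1 subset, so the following 4 comparisons share that control. In Spp1 Gpnmb macrophages, 3 of the 34 genes were higher and 0 lower (1.2% of all genes higher, 0.533% lower). At an unadjusted p under 0.05, 8 were higher and 2 lower, and DESeq2 called 3 higher and 1 lower. Over the 34 the median log2 fold was 0.13, beside -0.04 over all genes. Of the 11 hydrolases 0 were called, with 1 higher and 1 lower at an unadjusted p under 0.05 and 1 lower by DESeq2.

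The V0 gene Atp6v0d2, an isoform of the d subunit known from osteoclasts and macrophages (chr4:19876841-19922605), had 68.6 and 57.5 CPM in Spp1 Gpnmb macrophages and 2.69 and 1.02 in C1q Vcam1 macrophages. Its log2 fold was 5.11 (SE 0.75, adjusted p = 6.59e-05), on few molecules: 53 UMIs in 17 of 102 cells (16.7%), up to 7 in a cell, against 6 UMIs in 6 of 508 cells (1.18%). After thinning each cell to 1900 UMIs, the share was 2.63% in replicate 1 (2 of 76 cells) and 15.4% in replicate 2 (4 of 26), against 0.394% over both libraries of C1q Vcam1 macrophages. T and NK cells had 0 of 76, which allows a share of cells with a UMI of up to 4.74% and sets no limit on cells that express the gene (exact binomial limit, for counting error only). Free RNA held Atp6v0d2 at 3.44 and 5.58 CPM, above the level in C1q Vcam1 macrophages. The median depth was 7350 and 7525 UMIs in Spp1 Gpnmb macrophages, 5734 and 7267 in C1q Vcam1 macrophages and 3960 and 3738 in T and NK cells. Monocyte-like cells held 16 UMIs of Atp6v0d2 in 7 cells, and cells of no class held 24 in 11 cells.

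Grn had 1285 and 1548 CPM in Spp1 Gpnmb macrophages against 806 and 904, a log2 fold of 0.72 (SE 0.17, adjusted p = 0.0167). Atp6v1g1, a stalk subunit of V1, had 707 and 656 CPM against 379 and 457, a log2 fold of 0.72 (SE 0.19, adjusted p = 0.0299). None of the 3 calls held under every alternative. Grn and Atp6v1g1 were lost with no filter on low counts, without the library block and without Gpnmb among the markers. Atp6v0d2 was lost under DESeq2 (adjusted p = 0.112). With classes from clusters, 7 genes were higher and 3 lower. Mitf had a log2 fold of 1.43 that was not called (adjusted p = 0.169). Of the further lists, Igf2r (16.7 and 19.2 CPM against 2.69 and 0.508), the receptor that sorts hydrolases by mannose 6-phosphate, and the sulfatase gene Galns (53.5 and 52.7 against 14.8 and 13.7) were higher, at log2 folds of 3.41 and 1.91. These were 2 of the 64, with 0 lower. The level of Igf2r rests on few molecules, above all in C1q Vcam1 macrophages, so the size of its fold is uncertain.

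**Figure D3:**
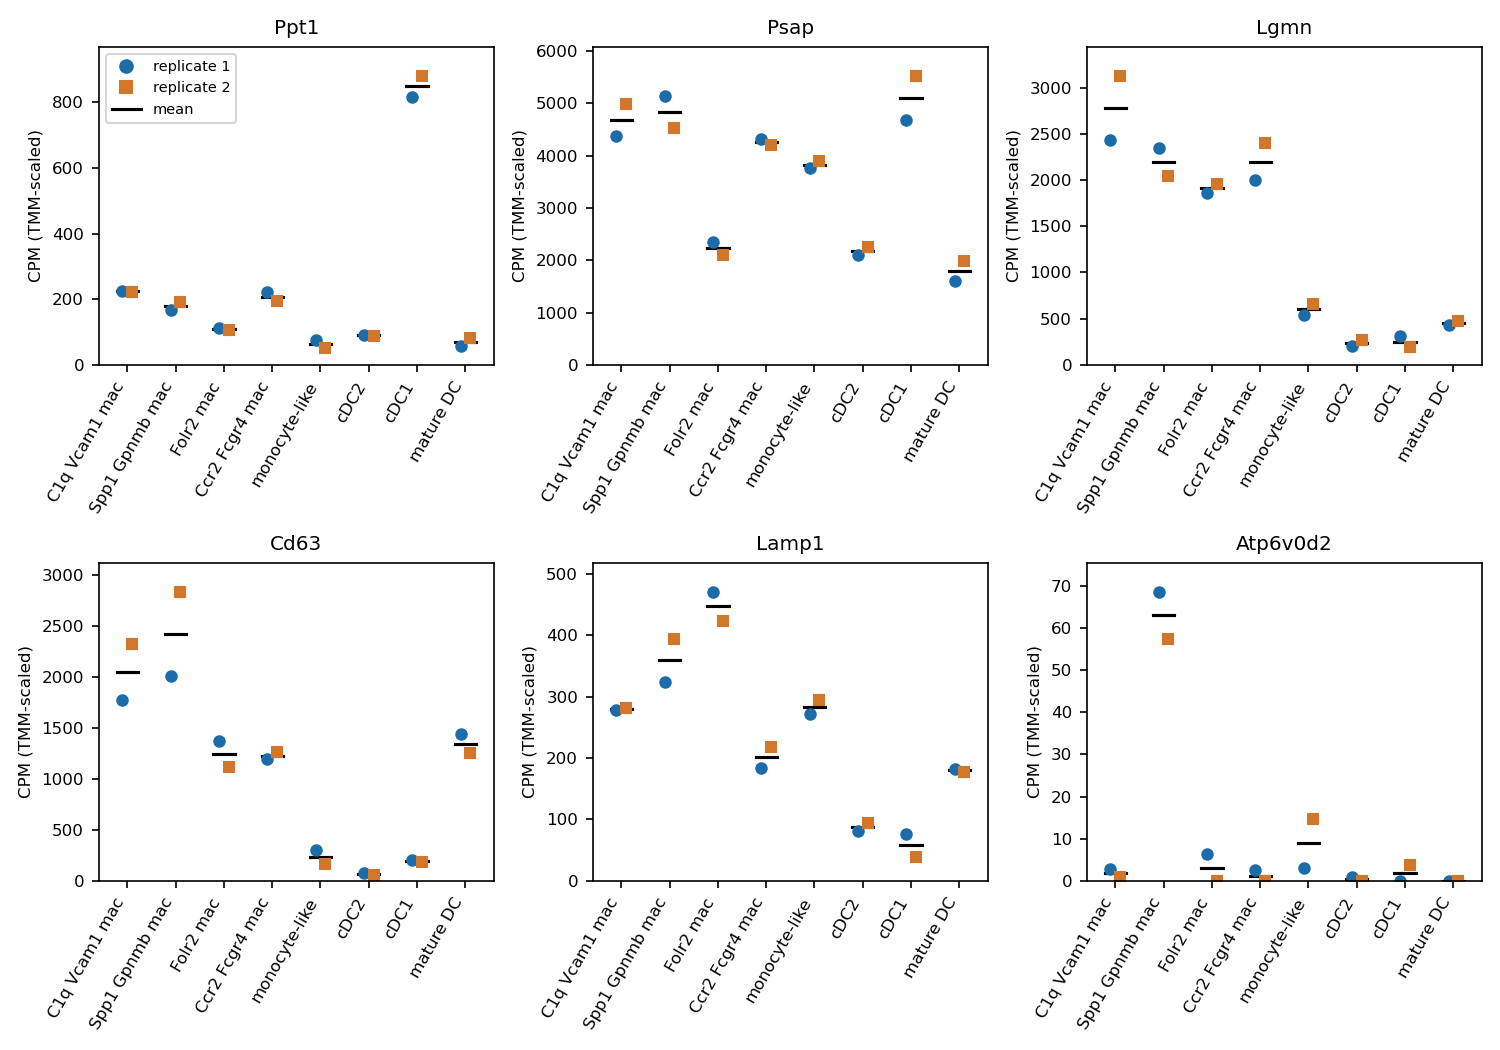
CPM (TMM-scaled, linear axes from 0) of Ppt1, Psap, Lgmn, Cd63, Lamp1 and Atp6v0d2 in 8 myeloid classes, with 1 point per library and a line at the mean. Ppt1 reached 816 and 880 CPM in cDC1, Atp6v0d2 reached 68.6 and 57.5 CPM in Spp1 Gpnmb macrophages, and Cd63 was high in macrophages and mature DC.

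In Folr2 macrophages, 1 of the 34 genes was higher and 5 were lower than in C1q Vcam1 macrophages (4.81% of all genes higher, 4.14% lower). The median log2 fold was -0.12, beside -0.03 over all genes. Of the membrane genes, Lamp1 was the one that was higher, with 470 and 423 CPM against 278 and 282 (log2 fold 0.69, SE 0.20, adjusted p = 0.0222). That call was lost without the library block and with no filter on low counts (highest adjusted p 0.0787). Scarb2, which carries glucocerebrosidase to the lysosome, had 86.9 and 51.3 CPM against 176 and 165, a log2 fold of -1.18 (SE 0.23, adjusted p = 0.000512).

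Of the 11 hydrolases 3 were lower, with a median log2 fold of -0.38 over the 11. Gusb, the beta-glucuronidase, had 146 and 72.7 CPM against 271 and 328, a log2 fold of -1.30 (SE 0.25, adjusted p = 0.000408), and the fold was -0.89 in replicate 1 and -2.17 in replicate 2. Man2b1 had 149 and 124 CPM against 320 and 369, a log2 fold of -1.26 (SE 0.22, adjusted p = 0.000114). Ppt1, the thioesterase that removes palmitate from proteins, had 111 and 107 CPM against 224 and 223, a log2 fold of -1.05 (SE 0.22, adjusted p = 0.00115). Psap, the precursor of the saposins that help hydrolases reach sphingolipids, had 2349 and 2100 CPM against 4381 and 4987, a log2 fold of -1.07 (SE 0.17, adjusted p = 4.91e-05). For each of these genes both libraries of Folr2 macrophages lay below both of C1q Vcam1 macrophages.

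Of the 13 V-ATPase genes 0 were called in these cells by edgeR, with 4 higher and 0 lower at an unadjusted p under 0.05, and DESeq2 called 1 higher. The median log2 fold was 0.47 over the 7 V1 genes and 0.02 over the 4 V0 genes. Atp6v1a, the catalytic subunit of V1, had 271 and 158 CPM against 160 and 127, a log2 fold of 0.62 with an adjusted p of 0.0603, and was called under 5 of the 10 alternatives. The difference between roles was not tested. Replicate 2 held only 38 Folr2 macrophages. These cells also had more of the monocyte markers (medians of 13.8 and 8.95 per 10000 UMIs against 1.45 and 0) and of the cDC2 markers (8.0 and 8.67 against 0 and 0), and the part of those in the differences was not tested. Among the 64 further genes 2 were higher and 6 lower, with the largest fold in Acp5, an acid phosphatase (81.5 and 64.2 CPM against 550 and 533, log2 fold -2.85).

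In Ccr2 Fcgr4 macrophages, 0 of the 34 genes were called in either direction by edgeR or DESeq2 (0.635% of all genes higher, 0.0567% lower by edgeR). At an unadjusted p under 0.05, 0 were higher and 8 lower, 5 of them hydrolases and 3 membrane genes. The median log2 fold was -0.52 over the hydrolases and -0.07 over the V-ATPase genes.

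Monocyte-like cells had less of all 11 hydrolases than C1q Vcam1 macrophages, and less of 4 of 13 V-ATPase genes. Of the 34 genes, 0 were higher and 19 lower, where 10.2% of all genes were called higher and 8.69% lower. At an unadjusted p under 0.05, 1 was higher and 19 lower, and DESeq2 called 0 higher and 19 lower. The 19 of DESeq2 held 10 of the hydrolases and 5 V-ATPase genes. Their median log2 fold was -0.77, beside -0.01 over all genes. The hydrolases had a median of -1.08 and the V-ATPase genes of -0.19, and 3 of 6 membrane genes and Grn were lower too. Whether these roles differ from each other was not tested.

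Cd63 had 301 and 166 CPM in monocyte-like cells against 1777 and 2321 in C1q Vcam1 macrophages, a log2 fold of -3.09 (SE 0.36, adjusted p = 6.46e-08), at -2.52 in replicate 1 and -3.78 in replicate 2. Scarb2 had 65.4 and 40.5 CPM against 176 and 165, a log2 fold of -1.66 (SE 0.22, adjusted p = 4.57e-07). Lamp1 had 272 and 294 CPM against 278 and 282 (log2 fold 0.01), and Lamp2 had a log2 fold of -0.20, and neither was called.

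Lgmn had 544 and 662 CPM against 2433 and 3127, a log2 fold of -2.20 (SE 0.25, adjusted p = 2.32e-08). Ppt1 had 74.8 and 50.4 CPM against 224 and 223, a log2 fold of -1.82 (SE 0.21, adjusted p = 4.85e-08). Man2b1 had 117 and 130 CPM against 320 and 369, a log2 fold of -1.48 (SE 0.20, adjusted p = 1.31e-06). The gene of acid ceramidase, Asah1, had 121 and 130 CPM against 284 and 328, a log2 fold of -1.28 (SE 0.20, adjusted p = 1.32e-05). The weakest hydrolase call was Naglu, at a log2 fold of -0.93 and an adjusted p of 0.04996. That call was lost under 4 of the 10 alternatives, among them DESeq2 (highest adjusted p 0.103). Psap, in contrast, was not called at 3761 and 3889 CPM against 4381 and 4987, a log2 fold of -0.29.

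Of the V1 genes, Atp6v1d, a subunit of the central stalk, had 75.6 and 62.7 CPM against 156 and 139, a log2 fold of -1.10 (SE 0.23, adjusted p = 0.000519). The other V-ATPase genes called were Atp6v1a (log2 fold -0.79), Atp6ap1 (-0.75) and Atp6ap2 (-0.80). Those with folds closest to 0 were Atp6v1h (-0.01), Atp6v1e1 (0.02) and Atp6v0e (0.11). Without the library block, Naglu, Neu1, Atp6v1a and Atp6ap1 were not called. Among the 64 further genes 3 were higher and 17 lower. Igf2r was higher (23.6 and 24.6 CPM against 2.69 and 0.508, log2 fold 3.89) and Acp5 lower (42.5 and 43.0 against 550 and 533, log2 fold -3.67). The Igf2r level of C1q Vcam1 macrophages again rests on few molecules.

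**Figure D4:**
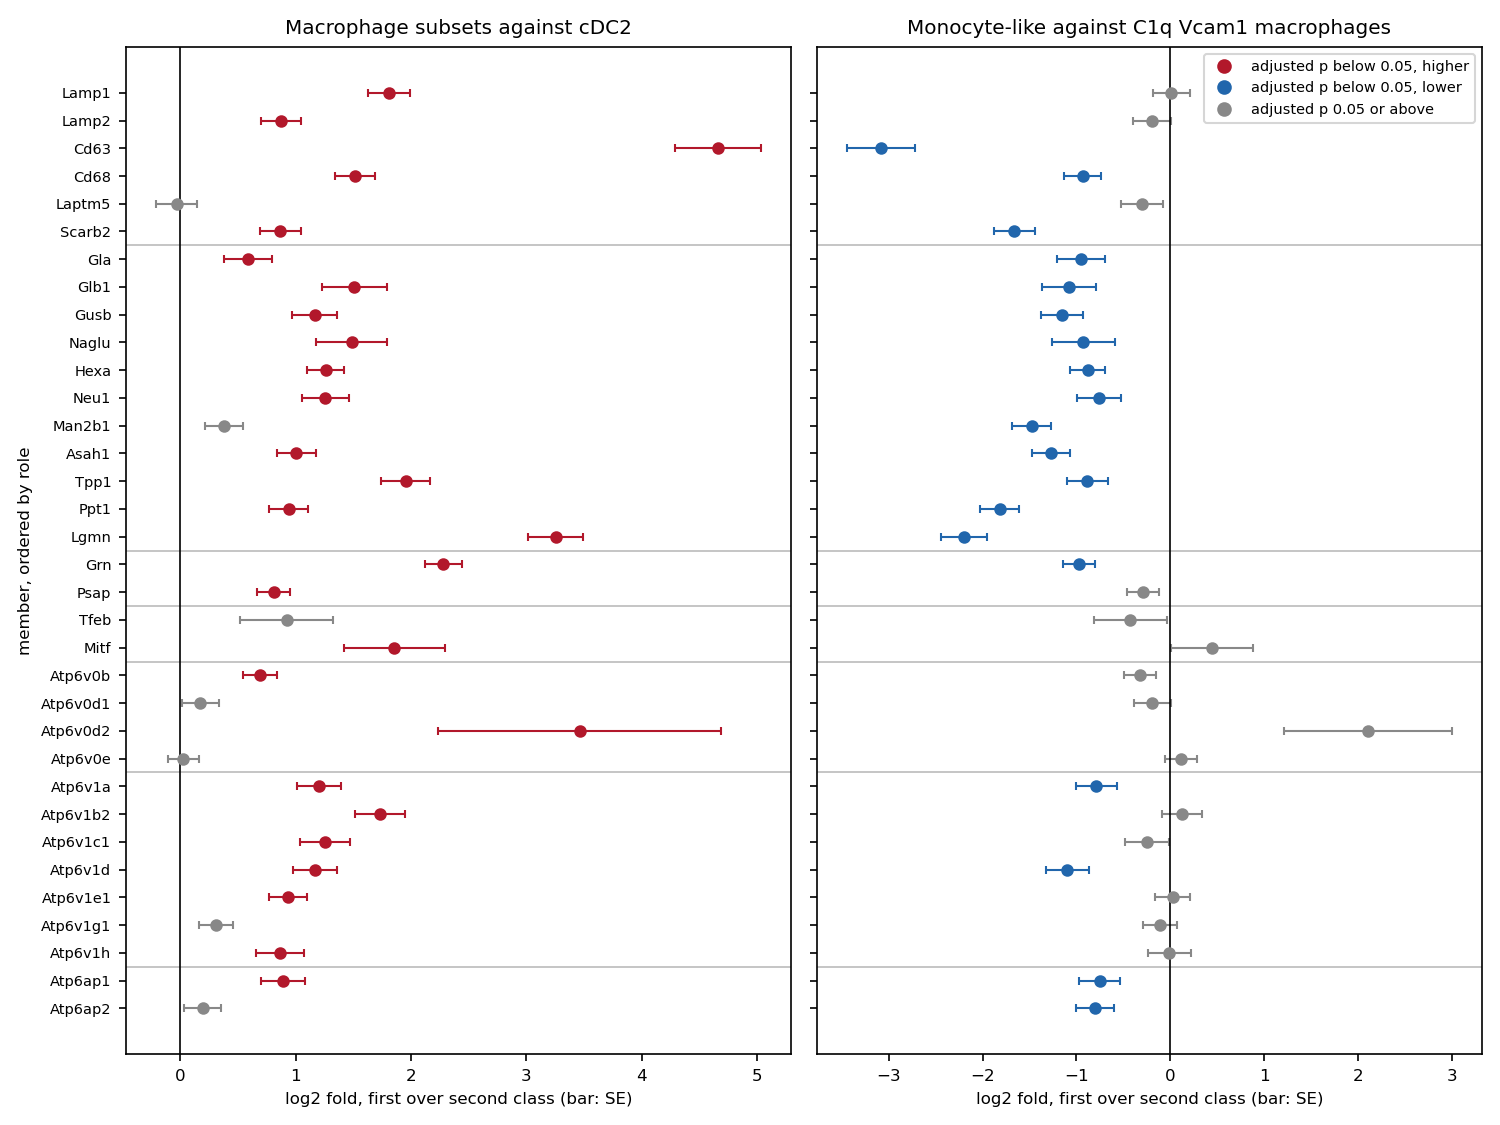
Log2 fold (linear axis, bars show the SE) of each of the 34 tested genes, ordered by role, for the macrophage subsets against cDC2 and for monocyte-like cells against C1q Vcam1 macrophages. All 11 hydrolases lie below 0 in the monocyte-like panel, from -2.20 for Lgmn to -0.76 for Neu1, while 9 of 13 V-ATPase genes are grey, not called.

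Between the conventional dendritic classes, cDC1 differed from cDC2 in a few genes. Of the 34 genes, 5 were higher in cDC1 and 1 lower, where 4.27% of all genes were called higher and 6.37% lower. Their median log2 fold was 0.04, beside -0.01 over all genes. With classes from clusters, 4 were higher and 6 lower, and the median was -0.15. Among the V-ATPase genes 0 of 13 were called by edgeR, with 1 higher and 2 lower at an unadjusted p under 0.05, and DESeq2 called 1 higher. Their median log2 fold was -0.01.

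Ppt1 (chr4:122836242-122859175) stood out, with 816 and 880 CPM in cDC1 against 90.7 and 88.4 in cDC2, a 9.45-fold difference (log2 fold 3.24, SE 0.20, adjusted p = 4.11e-13). It was found in 96.0% of cDC1 cells and 36.5% of cDC2 cells. After thinning each cell to 1900 UMIs the shares were 69.0% in cDC1, 15.2% in cDC2 and 11.8% in T and NK cells. Median depths were 7943 and 11097 UMIs in cDC1, 6000 and 7713 in cDC2 and 3960 and 3738 in T and NK cells. Free RNA, measured in barcodes of at most 50 UMIs, held Ppt1 at 131 and 139 CPM.

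Of the other hydrolases, Gusb had 197 and 199 CPM in cDC1 against 96.1 and 100.4 in cDC2, a log2 fold of 1.01 (SE 0.23, adjusted p = 0.00336). Man2b1 had 288 and 325 CPM against 160 and 178, a log2 fold of 0.86 (SE 0.20, adjusted p = 0.00323). Psap (chr10:60277627-60302597) had 4687 and 5524 CPM against 2108 and 2261, a log2 fold of 1.22 (SE 0.17, adjusted p = 4.13e-06). The remaining 8 hydrolases were not called. All 3 called hydrolases and Psap were higher in both cDC1 libraries than in both cDC2 libraries.

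Of the membrane genes, Lamp2 was lower in cDC1, with 106 and 95.8 CPM against 174 and 218 (log2 fold -0.94, SE 0.22, adjusted p = 0.00402). Cd63 was called higher at 203 and 187 CPM against 75.6 and 55.6 (log2 fold 1.58, SE 0.38, adjusted p = 0.00475), but 1 cDC1 cell held 96 of its 399 UMIs. Its share of thinned cells was 12.4% in cDC1, 7.82% in cDC2 and 9.21% in T and NK cells, and free RNA held it at 823 and 930 CPM. That call was lost under DESeq2 and with classes from clusters (highest adjusted p over the alternatives 0.230). Of the further lists 6 genes were higher and 4 lower. Laptm4b, a lysosomal transmembrane protein (22.4 and 49.7 CPM against 0.890 and 2.68, log2 fold 4.09), and Igf2r (27.3 and 20.6 against 1.78 and 2.68, log2 fold 3.31) had the largest folds.

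**Figure D5:**
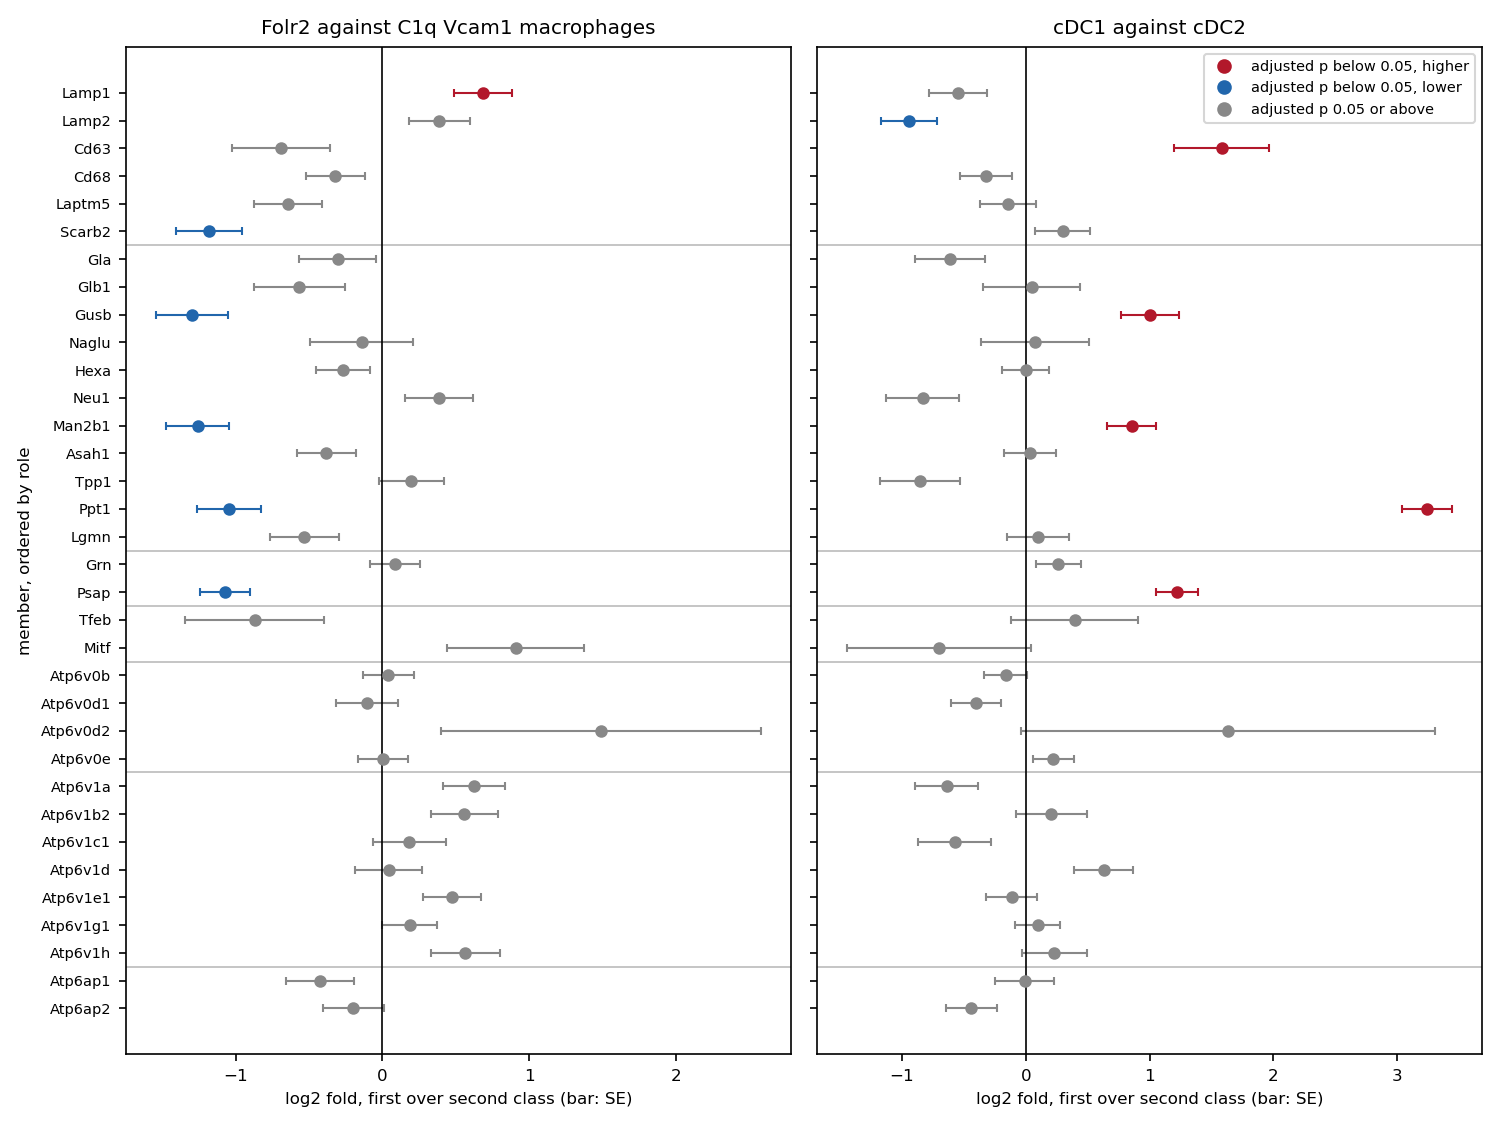
Log2 fold (linear axis, bars show the SE) of each of the 34 tested genes, ordered by role, for Folr2 against C1q Vcam1 macrophages and for cDC1 against cDC2. Gusb, Man2b1, Ppt1 and Psap were called in both panels, lower in Folr2 macrophages and higher in cDC1, and no V-ATPase gene was called in either.

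A further comparison, chosen after the levels of Ppt1 and Psap had been seen, set cDC1 against the mean of the macrophage subsets. In it 3 of the 34 genes were higher in cDC1 and 25 lower, where 16.1% of all genes were called higher and 14.5% lower. It shares its macrophage sums with the first comparison and its cDC1 sums with the preceding one. The 3 genes higher in cDC1 were Ppt1 (180 and 179 CPM in macrophages, log2 fold 2.30, SE 0.13, adjusted p = 5.89e-15), Man2b1 (216 and 248 CPM, log2 fold 0.47, adjusted p = 0.0184) and Psap (4045 and 3955 CPM, log2 fold 0.41, adjusted p = 0.0134). The Man2b1 call was lost without the library block (adjusted p = 0.0578). In each library Man2b1 was higher in C1q Vcam1 macrophages (320 and 369 CPM) than in cDC1 (288 and 325), while the other subsets lay below cDC1. Psap in cDC1 (4687 and 5524 CPM) overlapped C1q Vcam1 (4381 and 4987) and Spp1 Gpnmb macrophages (5131 and 4533). It lay above Ccr2 Fcgr4 (4319 and 4199) and Folr2 macrophages (2349 and 2100). In this comparison Atp6v0d2 had 3 UMIs in cDC1 and 68 in macrophages, a pooled ratio of 0.139 (0.0279 to 0.423). Since the levels of Ppt1 and Psap had prompted the comparison, their folds are a description.

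Lower in cDC1 than in macrophages were 8 of 11 hydrolases, 5 of 6 membrane genes and 10 of 13 V-ATPase genes. Lgmn had 307 and 188 CPM in cDC1 against 2158 and 2382 (log2 fold -3.15, SE 0.24). Cd63 had 203 and 187 CPM against 1585 and 1883 (log2 fold -3.08, SE 0.33). Tpp1 had 18.2 and 15.8 CPM against 122 and 126 (log2 fold -2.81), and Lamp1 had 77.0 and 38.8 against 314 and 329 (log2 fold -2.36). Mitf had 3.31 and 2.42 CPM against 19.7 and 17.4 (log2 fold -2.56), and -1.88 and -1.79 in the single libraries, where a prior count of 2 was added. The fold of Atp6v1c1 was -1.83, at -2.08 in replicate 1 and -1.18 in replicate 2. Gusb had a log2 fold of -0.16 that was not called. Of the further lists 7 genes were higher and 38 lower, with the largest folds in Igf2r (6.06 and 4.92 CPM in macrophages, log2 fold 3.02) and Pla2g15 (14.9 and 3.64 CPM in cDC1, log2 fold -3.02).

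Mature DC-like cells were set against the mean of cDC1 and cDC2, the same sums that enter the other dendritic comparisons. Of the 34 genes, 3 were higher and 6 lower, where 7.33% of all genes were called higher and 4.97% lower. The median log2 fold was -0.18, beside -0.11 over all genes. With the size factors of DESeq2 the median over all genes was -0.03 in edgeR and 0 in DESeq2 itself, and 5 genes were higher and 5 lower in each. Among the V-ATPase genes 1 of 13 was called, with a median log2 fold of 0.03.

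Cd63 had 1437 and 1248 CPM in mature DC against 139 and 121 in the conventional classes, a log2 fold of 3.58 (SE 0.30, adjusted p = 7.62e-11). Its level was within the range of the macrophage libraries, 1116 to 2832 CPM, and it was found in 88.0% of mature DC cells, or 73.0% after thinning, where T and NK cells had 9.21%. Median depth was 5898 and 7268 UMIs in mature DC. Lamp1 had 183 and 178 CPM against 79.0 and 66.3, a log2 fold of 1.32 (SE 0.22, adjusted p = 4.39e-05). Both membrane genes were higher in both libraries, while the other 4 tested membrane genes were not called.

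Among the hydrolases, Ppt1 had 57.9 and 80.4 CPM in mature DC against 453 and 484, a log2 fold of -2.03 (SE 0.24, adjusted p = 1.47e-07), where the level of the conventional classes rests on cDC1. Man2b1 had 76.1 and 76.2 CPM against 224 and 252, a log2 fold of -1.57 (SE 0.25, adjusted p = 1.97e-05), and Hexa, the alpha subunit of hexosaminidase, a log2 fold of -0.80. Lgmn was higher, with 432 and 474 CPM against 255 and 229 (log2 fold 0.89, SE 0.22, adjusted p = 0.00576), a call lost with a threshold of 1000 UMIs per cell (adjusted p = 0.0923). Free RNA held Lgmn at 992 and 1381 CPM, and T and NK cells had 153 and 482 CPM. The part of free RNA in this call was not tested. Psap had 1599 and 1988 CPM against 3398 and 3893, a log2 fold of -0.90 (SE 0.16, adjusted p = 6.73e-05). Here too the level of the conventional classes rests mostly on cDC1, since cDC2 had 2108 and 2261 CPM. Grn had a log2 fold of -0.73.

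The accessory gene Atp6ap2, which encodes the prorenin receptor, had a log2 fold of -0.72 (adjusted p = 0.0435), the single V-ATPase call. That call was lost under 5 of the 10 alternatives (highest adjusted p 0.0927), among them DESeq2, which called 1 V-ATPase gene higher and 0 lower. Naglu, the N-acetyl-alpha-glucosaminidase gene, had 1 UMI in mature DC against 49 in the conventional classes, a pooled ratio of 0.165 (95% interval 0.00410 to 0.964). Atp6v0d2 had 0 UMIs against 4, and no fold is given. The Spp1 Gpnmb markers had medians of 31.3 and 22.8 per 10000 UMIs in mature DC beside 95.7 and 83.0 for their own markers, and their part in the differences was not tested. On the further lists 6 genes were higher and 5 lower, with the largest folds in Laptm4b (88.3 and 55.0 CPM against 11.6 and 26.2, log2 fold 3.16) and Sort1, the sorting receptor sortilin (12.2 and 33.8 against 2.99 and 1.95, log2 fold 3.01). The conventional level of Laptm4b rests on cDC1, whose replicate 2 came close to mature DC, with very little in cDC2. The fold averages these classes on the log scale, so it exceeds the ratio of the CPM given.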

How the data were processed

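For each of the 2 libraries the deposited matrix gives whole UMI counts of 27998 genes in all 737280 barcodes, with no filter on cells. Reads were processed with Cell Ranger 2.2.0 on mm10, per the submitters' processing notes, and the libraries used the 10x 3' chemistry version 2, per the labels' protocols. The annotation release is not given in the sources used here. A 3' UMI count does not scale with transcript length. Genes with near-identical copies may share reads.

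Cells were called at the 99th percentile of UMIs among the top 3000 barcodes divided by 10 (2112 and 1905 UMIs), which gave 2013 and 1318 barcodes. Cells with under 200 genes (0 and 1) or over 10% mitochondrial UMIs (83 and 90) were left out, as were the 30 and 12 with the highest doublet scores, 0.8% per 1000 cells. Each cell was scored on marker lists (179 genes written, 173 found) as mean z values of log counts per 10000. It joined the class with the best score, of at least 0.25, at least 3 markers with a UMI, and a margin of 0.1 over the next.

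UMI counts were summed per class and library and tested with edgeR 4.0.16 in R 4.3.3 (quasi-likelihood fit, filterByExpr, TMM). The library entered as a block: all classes of 1 library went through 1 capture, so the pairing comes from the design. The fit held 11 classes (a minimum of 20 cells per library was required), 22 sums and 10 residual degrees of freedom. P-values were adjusted by Benjamini-Hochberg over 8813 genes that define no class. The test was tried on simulated data. CPM means are over the 2 libraries, a single class total per library. Python 3.11.15, scanpy 1.11.5, numpy 2.4.6, scipy 1.17.1, pandas 2.3.3, leidenalg 0.10.2 and DESeq2 1.42.0 were also used. Gene positions came from GENCODE M21 of GRCm38 and promoters from RefSeq.

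The 36 genes, the 4 further lysosomal lists and the markers were chosen with earlier results of these data known. Values in every library are given for the called genes with the largest folds (up to 6 a comparison), for each role, and for up to 2 called genes of the further lists. A gene of the further lists that met this rule is not reported here. Alternatives were other scaling, DESeq2, no filter on low counts, no block, a lower UMI threshold, no doublet removal, a stricter gate, gates without Gpnmb, classes from clusters, no cycling cells, and single libraries.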

Additional observations from a re-analysis of the deposited data

How the results depend on the processing

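Of the 98 calls, 0 reversed under the alternatives run with both libraries. The calls that held in all of these were 25 of 27 for macrophages against cDC2, 0 of 3 for Spp1 Gpnmb, 5 of 6 for Folr2, 15 of 19 for monocyte-like cells, 7 of 9 for mature DC, 5 of 6 for cDC1 against cDC2 and 26 of 28 for cDC1 against macrophages. Without the library block (no replicate block), called genes numbered 25, 1, 5, 0, 15, 8, 6 and 26 for macrophages, Spp1 Gpnmb, Folr2, Ccr2 Fcgr4, monocyte-like cells, mature DC, cDC1 against cDC2 and cDC1 against macrophages. For Spp1 Gpnmb against C1q Vcam1 macrophages, 3 calls became 1 without Gpnmb among the markers and 10 with classes from clusters (7 higher, 3 lower), and the median log2 fold over the tested genes became -0.028 with no filter on low counts and -0.013 without Gpnmb. For Ccr2 Fcgr4 macrophages, 0 calls became 1 (lower) with no filter, and classes from clusters gave no value because replicate 2 held 9 cells. For cDC1 against cDC2, 6 calls became 10 with classes from clusters (4 higher, 6 lower), with a median of -0.15. The 4.62-fold range of summed hydrolase levels became 5.43 with classes from clusters and was 4.18 and 5.15 in the single libraries. The median log2 fold ran from -0.41 to 0.10 over the single libraries for Folr2 macrophages and was -0.019 without replicate 2 and 0.034 without replicate 1 for cDC1 against cDC2, so both signs differ between the libraries. The split of calls for Folr2 macrophages, 1 higher and 5 lower, was 2 and 5 with the size factors of DESeq2, 0 and 8 with no filter and 0 and 5 without the block. The cause of these shifts was not tested. Genes under about 20 CPM, such as Tfeb and Mitf, rest on few molecules: 207 and 163 UMIs over the 8 classes. So do the low levels of Igf2r and Laptm4b on the further lists.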
